A study of Acacia koa with 4 samples.

Results

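Transcripts A8782 and A3401 of Acacia koa, a leguminous tree, are described on the array as similar to a UDP-D-glucuronic acid 4-epimerase and to a UDP-glucuronate 5-epimerase. They are 2 of the 4000 transcripts measured, and 2 of the 11 whose description contains the word epimerase. Both were chosen by identifier, selected on intensities in the stressed and unstressed pools that were already known. Their difference between the groups is therefore given as a description, without a test.

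The series asked which koa transcripts respond to a mechanical stimulus. Stressed seedlings had their stems flexed by hand in every cardinal direction and were not wounded, while unstressed seedlings had no such treatment. Each group held 2 biological replicates, and each replicate was a pool of about 20 whole seedlings. Each pool was hybridised to its own 1-colour NimbleGen array, and the value of a transcript is an RMA intensity on a linear scale. The sources used here do not give the time from bending to freezing, the age of the seedlings or the seed source.

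UDP-glucuronate is a branch point in the supply of sugars to the plant cell wall. UDP-glucose dehydrogenase makes it from UDP-glucose, and a decarboxylase turns it into UDP-xylose for xylan and xyloglucan. UDP-glucuronate 4-epimerases, membrane proteins of the Golgi in Arabidopsis, invert a single hydroxyl group of the sugar and so make UDP-galacturonate, the building block of the pectin backbone. The descriptions are names of similar proteins, and no enzyme activity or sugar was measured. Whether the protein of A3401, described as a 5-epimerase, has 4- or 5-epimerase activity cannot be told from its description.

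A8782 had intensities of 9636 (replicate 1) and 12665 (replicate 2) without stress, and of 33446 (replicate 1) and 41645 (replicate 2) after stress. Both stressed pools lay well above both unstressed pools, and the dimmer stressed pool was 2.64 times the brighter unstressed pool. On the log2 scale the unstressed mean was 13.43 ± 0.28 (SD, n = 2), and the stressed mean was 15.19 ± 0.22 (SD, n = 2). The stressed level was 3.38-fold the unstressed level, a log2 difference of 1.76.

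A3401 had intensities of 8581 (replicate 1) and 10768 (replicate 2) without stress, and of 29327 (replicate 1) and 31346 (replicate 2) after stress. Again both stressed pools were the high ones, with a ratio of 2.72 between the dimmer stressed and the brighter unstressed pool. Its log2 mean without stress was 13.23 ± 0.23 (SD, n = 2), and with stress it was 14.89 ± 0.07 (SD, n = 2). This is a 3.15-fold higher level in stressed pools, or 1.66 on the log2 scale.

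**Figure D1:**
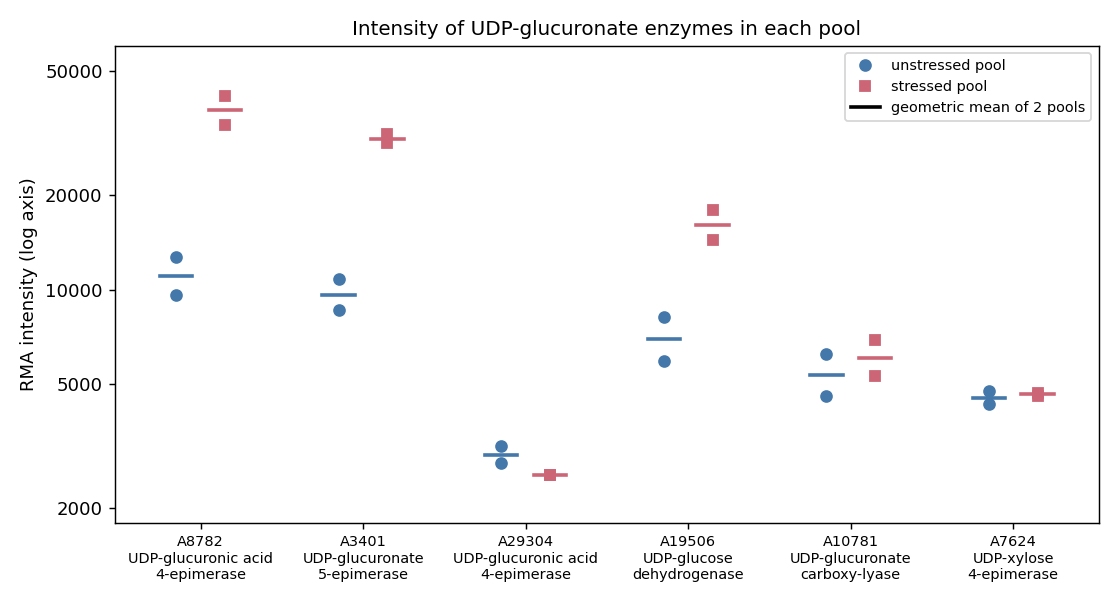
RMA intensity (log axis) of the 2 epimerase transcripts A8782 and A3401, a further 4-epimerase transcript and 3 enzymes next to them in the pathway, with 1 point per pool and a bar at the geometric mean of the 2 pools of a group. A8782, A3401 and UDP-glucose dehydrogenase (A19506) have both stressed pools above both unstressed pools, whereas A29304 has both stressed pools slightly below. Heights of different transcripts are not comparable, since each has its own probes.

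Among all 4000 transcripts, 42 (1.05%) had a dimmer stressed pool at least 2 times the brighter unstressed pool, and both epimerases were among them. Ordered by log2 difference from high to low, A8782 stood at position 26 and A3401 at position 30. All 4000 transcripts had a median log2 difference of −0.04. The brightest array values were 64415 to 64925, so the stressed values of both epimerases lay in the upper part of the scale, where differences may be compressed.

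The 2 transcripts differed between groups by similar amounts. Their log2 differences were 0.10 apart. The SDs given above are of single transcripts within a group and do not measure the spread of this gap. The intensity of A8782 divided by that of A3401 was 1.12 and 1.18 in the unstressed pools, and 1.14 and 1.33 in the stressed pools, with replicate 1 given first. Only the course of this ratio over the pools can be read, not its size, because the probes differ. Stressed replicate 2 had the highest ratio, and the other 3 pools were close together.

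Replicate 2 was brighter than replicate 1 in both groups for both transcripts. For A8782 the excess was 1.31-fold in unstressed and 1.25-fold in stressed pools. For A3401 it was 1.25-fold in unstressed and 1.07-fold in stressed pools. On the log2 scale the replicates of A8782 were 0.39 apart without stress and 0.32 apart with stress. Over all transcripts the SD of that difference was 0.37 and 0.26, around medians of 0.00 and 0.02.

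The array carried a further transcript described as a UDP-D-glucuronic acid 4-epimerase, A29304. It read 2791 and 3156 in the unstressed pools and 2561 and 2556 in the stressed pools, with replicate 1 first here and in all pairs of values that follow. The stressed pools were the lower ones by a small margin, an order that 779 transcripts of the array (19.5%) shared. The log2 difference was −0.21 (95% confidence interval −0.54 to 0.12) and did not pass limma's test (adjusted p = 0.99). The log2 difference of A8782 exceeded that of A29304 by 1.97, and that of A3401 exceeded it by 1.87, both as descriptions. Probe sequences were not used here, and whether A8782 and A3401 bind each other's probes was not tested.

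The other 8 epimerase transcripts, whose descriptions name another sugar or none, had overlapping groups, as did most of the array, where 12% of transcripts had both stressed pools above and 19.5% both below. UDP-xylose 4-epimerase (A7624), which makes the arabinose donor of the wall, read 4299 and 4752 without and 4564 and 4687 with stress. Its log2 difference was 0.03 (−0.29 to 0.35, limma adjusted p = 0.99). UDP-glucose 4-epimerase (A24938), which interconverts the glucose and galactose donors, had a log2 difference of −0.04 (−0.44 to 0.37), with unstressed pools at 824 and 1016 and stressed pools at 847 and 940. In both transcripts the stressed values fell within the range of the unstressed ones.

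Aldose 1-epimerases, which interconvert the ring forms of free sugars, were represented by 3 transcripts. Their log2 differences were 0.19 (A13153), 0.13 (A120983) and −0.10 (A37846). The 2 transcripts described only as NAD-dependent epimerase or dehydratase were at −0.06 (A20742) and −0.03 (A57215). Ribulose-phosphate 3-epimerase (A526993), an enzyme of the pentose phosphate and Calvin cycles, was at 0.05. It read 48.1 to 52.7 in all pools, close to the array minimum of 44.2 to 45.5, so little of a difference could have been seen there.

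**Figure D2:**
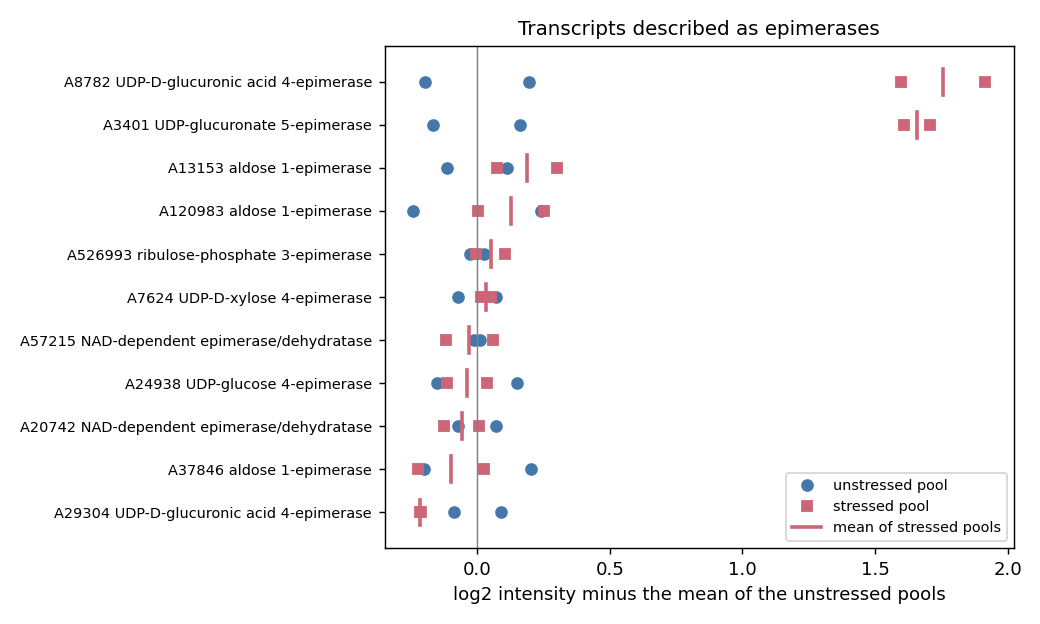
Log2 intensity of the 11 transcripts described as epimerases, each set to 0 at the mean of its unstressed pools, with 1 point per pool and a bar at the mean of the stressed pools. A8782 and A3401 stand at 1.76 and 1.66, and the other 9 lie between −0.21 and 0.19.

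Of the 9 epimerases other than A8782 and A3401, none passed limma's test over all 4000 transcripts (adjusted p under 0.05), against 0.95% of the array. None had an unadjusted p under 0.05 either, against 5.5% of the array. Their median log2 difference was −0.03, against −0.04 over all transcripts. Over the whole array 37 transcripts (0.925%) were called higher in stressed pools and 1 (0.025%) lower. With A8782 and A3401 included, the count of epimerases called was 2 of 11, and nothing is read from it because these 2 were chosen with the same contrast. That count was 0 without stressed replicate 1 or stressed replicate 2, 1 without unstressed replicate 1, and 2 without unstressed replicate 2.

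Upstream of the epimerases, UDP-glucose dehydrogenase (A19506) makes UDP-glucuronate. It read 5916 and 8159 without stress, and 14357 and 17913 with stress. Both stressed pools were above both unstressed pools, as in 480 of all transcripts (12%). The stressed level was 2.31-fold the unstressed level (95% confidence interval 1.58 to 3.38), and it did not pass the threshold (limma adjusted p = 0.16). Replicate 2 was also the brighter pool of each group here.

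Smaller differences were found for the decarboxylase exit from UDP-glucuronate, and for transferases whose descriptions name UDP-glucuronosyl or UDP-glucosyl transfer. The UDP-D-glucuronate carboxy-lyase (A10781), the decarboxylase that makes UDP-xylose, read 4563 and 6204 without and 5300 and 6899 with stress. The groups overlapped, at a log2 difference of 0.18 (−0.38 to 0.75, limma adjusted p = 0.99). The 3 transcripts described as UDP-glucuronosyl or UDP-glucosyl transferases, a large family that mostly glycosylates small molecules in plants, were at 0.39 (A13671), −0.10 (A126401) and 0.00 (A8945). A13671 was high in stressed replicate 1 alone, at 354 against 208 to 216 in the other 3 pools. No description matched the search terms for inositol oxygenase or glucuronokinase, enzymes of the alternative route to UDP-glucuronate.

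Among the 7 transcripts of UDP-glucuronate supply and use other than A8782 and A3401, 0 passed the test and 1, the dehydrogenase, had an unadjusted p under 0.05. Over the array these shares were 0.95% and 5.5%, so lists of this size would hold few or no called transcripts at the array's rate. The median log2 difference of these 7 was 0.03. In the wider list of nucleotide sugar enzymes, 0 of 29 others were called, with 11 positive and 18 negative differences and a median of −0.06. Of the whole array, 1570 transcripts were positive and 2430 negative.

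Steps that feed UDP-glucose into the pathway had differences of small size. Sucrose synthase, which splits sucrose into fructose and UDP-glucose, had 12 transcripts, with log2 differences from −0.39 to 0.13. Of these, 10 were negative, where 2430 of the 4000 transcripts of the array were, and none was called, against 0.95% of the array. The lowest was A118727, which read 1823 and 2966 without and 1783 and 1762 with stress, so that unstressed replicate 2 alone stood apart. Without that replicate its log2 difference was −0.04. UDP-glucose pyrophosphorylases, which make UDP-glucose from glucose 1-phosphate, were at −0.02 and 0.08. The reversibly glycosylated protein, of a family that converts the arabinose donor between its ring forms, was at −0.11.

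Downstream of UDP-galacturonate, the list of pectin synthesis and modification held 56 transcripts. None was called, against 0.95% of the array. At an unadjusted p under 0.05, 2 were higher and 1 lower, a share near the 5.5% of the array. The median log2 difference was −0.07. The 7 transcripts described as QUASIMODO glycosyltransferases, of a family that adds galacturonate to pectin in Arabidopsis, ranged from −0.17 to 0.25, with 3 positive and 4 negative. The 23 pectinesterases and pectin methylesterases, which remove methyl groups from pectin in the wall, ranged from −0.68 to 0.78. Those at the ends were A244101, which read 428 and 546 in unstressed and 311 and 293 in stressed pools, and A33509, which read 342 and 244 in unstressed and 458 and 542 in stressed pools. The limma adjusted p was 0.35 for A244101 and 0.46 for A33509.

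The pectin methylesterase A4621, at 0.35 (limma adjusted p = 0.91), and the polygalacturonase-inhibiting protein A3570, at 0.29 (adjusted p = 0.99), also had stressed pools above unstressed pools without passing the test. Transcripts described as polygalacturonases, a name for enzymes that cut the pectin backbone, were negative in 10 of 10, with log2 differences from −0.65 to 0.00. The 10 included a transcript described as polygalacturonase-1 non-catalytic, at −0.06. Over the array 2430 of 4000 transcripts were negative. None of the 10 was called or had an unadjusted p under 0.05, against 0.95% and 5.5% of the array. In 1 of the 10 both stressed pools lay below both unstressed pools, against 19.5% of the array. Their median intensities were 2016 and 483 without and 1337 and 402 with stress, so these medians lay further apart between replicates than between groups. The replicates were closer in the summed intensities, at 24636 and 20791 without and 21519 and 18849 with stress. The polygalacturonases, like the other enzyme or protein subgroups of the lists, were set apart after their values were seen. The 8 pectate lyases lay between −0.21 and 0.12.

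**Figure D3:**
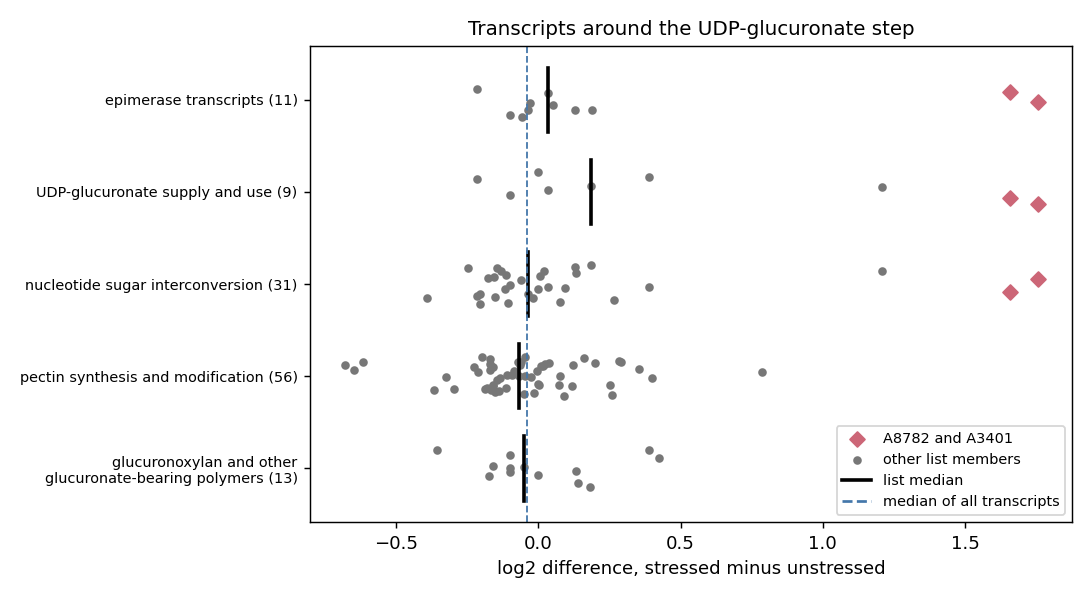
Log2 difference (stressed minus unstressed) of each transcript in 5 lists around UDP-glucuronate, with the number of transcripts in brackets, a bar at the list median and a dashed line at the median of all transcripts (−0.04). A8782 and A3401 are drawn as diamonds in the 3 lists that hold them, and the grey point at 1.21 in 2 of these lists is UDP-glucose dehydrogenase. Points are spread vertically only to keep them apart.

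Xylan and arabinogalactan can carry glucuronate. A list searched by terms for these polymers and for glucuronosyl or xylosyl transfer held 13 transcripts, with a median log2 difference of −0.05. It included the 3 UDP-glucuronosyl or UDP-glucosyl transferases above, and transcripts described as beta-1,2-xylosyltransferases at 0.13 and 0.18. Their descriptions do not place these transferases in xylan or arabinogalactan synthesis, so the median is not one of such transcripts alone. None of the 13 was called, against 0.95% of the array. The fasciclin-like arabinogalactan protein A60373 was at 0.42 (limma adjusted p = 0.81), with stressed pools at 5214 and 4955 against unstressed pools at 4224 and 3403. The 5 transcripts described as endoxylanases, set apart after their values were seen, were all negative, from −0.36 to −0.10. Over the array 2430 of 4000 transcripts were negative. The lowest, A335569, had a limma adjusted p of 0.94. In 2 of the 5 both stressed pools lay below both unstressed pools, against 19.5% of the array. The 5 were dim, with median intensities of 230 to 280 per pool, against 981 to 1018 over the array.

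Each pool was ground from whole seedlings, so more cells that use a transcript and more RNA per cell cannot be told apart. The 54 transcripts matching terms for lignifying xylem, cellulose synthase among the terms, had a median log2 difference of −0.04. None was called, against 0.95% of the array, a rate at which few or no calls would fall in a list of this size. Their summed intensities were 324930 and 298331 without and 298539 and 302937 with stress. The 42 ribosomal protein transcripts had a median of 0.11, with 34 positive, where 1570 of the 4000 transcripts of the array were positive. None of the 42 was called, against the same 0.95%. Their sums were 193955 and 243739 without and 234226 and 244138 with stress. Photosynthetic terms matched 3 transcripts, a chlorophyll-binding protein, a photosystem protein and the ribulose-phosphate epimerase. These summed to 92510 and 92769 in unstressed and 91185 and 92391 in stressed pools. The ribosomal sum was lowest in unstressed replicate 1, the pool in which A8782 and A3401 were also lowest, and its part in their values was not tested. Without that pool the log2 difference was 1.56 for A8782 and 1.49 for A3401.

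The transcripts whose course over the 4 pools was most like that of the epimerases were found by centring each log2 profile on its own mean and taking the root mean square difference. For A8782 the nearest of all transcripts was A3401, at 0.10 on the log2 scale, against a median of 0.92 to all transcripts. Both had been selected on these same pool values, so their closeness to each other is a description only. Next came an ethylene-responsive transcription factor (A12798, 0.14), an AP2 domain-containing transcript (A124099, 0.17), mitogen-activated protein kinase 2 (A23526, 0.18) and a further MAP kinase (A15040, 0.19). MAP kinases relay signals by phosphorylation, and AP2 domain proteins are plant DNA-binding factors. In A23526 the stressed pools spread more than in A8782, at 7449 and 10318, and the unstressed pools were at 1933 and 2261.

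For A3401 the nearest profile was that of A12798, at 0.09, followed by A8782 at 0.10, A124099 at 0.13, the EF-hand calcium-binding protein A17246 at 0.15 and WRKY43 (A217421), a plant transcription factor, at 0.15. A12798 read 1670 and 1857 without and 5998 and 6021 with stress, a 3.41-fold higher level in stressed pools. Like A3401, it had stressed pools closer to each other than the unstressed ones were. Likeness over 4 pools mostly reflects a similar size of the group difference, and it was used here to select these transcripts, so it carries no test.

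**Figure D4:**
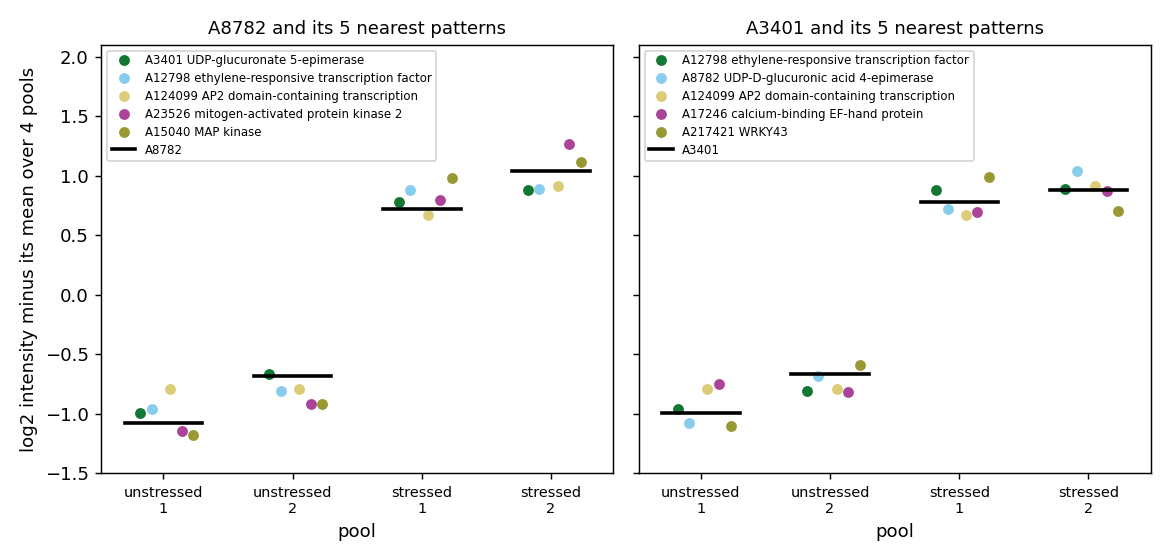
Log2 intensity minus its mean over the 4 pools for A8782 (left, black bars) and A3401 (right, black bars), with 1 point per pool for each of the 5 transcripts whose centred profiles were nearest. All points lie below 0 in both unstressed pools and above 0 in both stressed pools, and points are offset sideways only to keep them apart.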

How the data were processed

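RNA of 2 unstressed and 2 stressed pools was measured on 4 arrays. The deposited intensities were made by the authors with RMA, per the submitters' processing notes, and are on a linear scale. The sources used here do not name its software or settings. Each value of A8782 and A3401 rests on 18 probes, per the file headers. A standard error column of unexplained scale was not used.

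Intensities were taken to log2 with no filter and no pseudocount, and groups were compared with limma 3.58.1 under R 4.3.3 (functions lmFit and eBayes, two-sided, group as the only term, 2 residual degrees of freedom), with Benjamini-Hochberg adjustment over all 4000 transcripts. Transcripts with an adjusted p under 0.05 are called. Intervals are limma's 95% intervals. The number of arrays limits the precision, and the smallest two-sided p of an exact permutation test with these arrays is 0.333. The fit was also run on simulated arrays with noise drawn independently for each array. That setting lacks the correlation of replicate differences given below, and no result here rests on it.

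A8782, A3401 and all lists were chosen with earlier results of these data known. Lists are searches of the descriptions. Named transcripts are all epimerases, all members of the UDP-glucuronate list, the called and up to 4 further members with the smallest p of each other list, and the 5 nearest profiles of A8782 and of A3401. Members at the ends of a subgroup were named after their values were seen. Alternatives left out each array, added the replicate number as a block, centred or quantile-normalized the arrays, added 100 to intensities, dropped the dimmest 25% of transcripts, changed the eBayes prior, or used the deposited series table, whose intensities differed from the array files by at most 0.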

Additional observations from a re-analysis of the deposited data

How the results depend on the processing

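The log2 differences of A8782 and A3401 ranged from 1.56 to 1.95 and from 1.49 to 1.82 when 1 array was left out, and from 1.74 to 1.76 and 1.64 to 1.66 under the other alternatives. The number of transcripts called higher, 37, was 8 to 26 and the number called lower, 1, was 0 to 1 when 1 array was left out. With the replicate block these counts were 123 and 16. In the epimerase, UDP-glucuronate and nucleotide sugar lists the 2 transcripts called were A8782 and A3401, which were selected on this contrast, so these counts support nothing. They were 0 to 2 when 1 array was left out, and 1 in each list with 100 added to intensities. With the replicate block 3 were called in the UDP-glucuronate list and 3 in the nucleotide sugar list, the addition being UDP-glucose dehydrogenase (A19506, adjusted p = 2.6e-05, against 0.086 to 0.79 under its other alternatives), and 3 in the pectin list, among them A244101 and A33509 (adjusted p = 0.013 and 0.010). The replicate numbers come from the titles, which do not say that equal numbers share a batch. The differences between replicates 1 and 2 correlated at 0.51 between the groups over transcripts. There are 2 such pairs, too few to settle a pairing.

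Small differences changed sign when 1 array was left out. The ranges were −0.037 to 0.41 for A10781, −0.11 to 0.37 for A120983, −0.43 to 0.23 for A126401, −0.13 to 0.015 for A20742, −0.19 to 0.11 for A24938, −0.30 to 0.10 for A37846, −0.0045 to 0.11 for A526993, −0.12 to 0.060 for A57215, −0.039 to 0.11 for A7624 and −0.30 to 0.30 for A8945, which was 0.0001 with 100 added. The cause was not tested. Apart from A8945 as given, the alternatives that kept all arrays changed no sign among the 28 single transcripts followed.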
